A study of Saccharomyces cerevisiae with 24 samples.

Results

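The genes described here are 32 subunits of the yeast proteasome and RPN4, the transcription factor of these genes. SEM1 was not among the 32 and was listed with the assembly factors. They were chosen by a fixed list of 33 gene identifiers, from YER012W (PRE1) to YLR421C (RPN13) with YDL020C (RPN4). The list uses no measured value, but earlier results of these data were known when it was chosen. All 33 were found among the 6713 transcripts of the deposited files. Transcripts were sequenced in 24 libraries from 4 Saccharomyces cerevisiae strains, and the question of the comparisons is how strains and caffeine differ in transcript level. The strains are BY4742, a laboratory strain of the S288C background that is called S288C here, YPS606 (YPS), Y55, and UWOPS87-2421 (UWOP). Every culture grew in synthetic defined medium and was harvested at an OD of 0.4. Of the 6 libraries of each strain, 3 came from cultures given 20 mM caffeine for 4 h and 3 from cultures without it. Caffeine inhibits the TOR kinase and also perturbs the cell wall. The labels number the libraries from 25 to 48 and do not say whether the 3 libraries of a group came from separate cultures, so the p-values measure only the spread between these libraries, which may be technical.

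The 26S proteasome degrades proteins that carry ubiquitin chains. Its 20S core is a barrel of alpha and beta rings with the proteolytic sites inside the beta rings, and its 19S particle, made of a base with ATPases and a lid, binds the chains, removes the ubiquitin, unfolds the substrate and feeds it into the core. In budding yeast, Rpn4 binds an element called PACE in promoters of subunit genes, and the Rpn4 protein is itself short-lived because the proteasome degrades it. RPN4 is in turn a target of the stress regulators Pdr1, Pdr3, Yap1 and Hsf1.

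The PACE element is shown first because it is the element that Rpn4 is known to bind in promoters of subunit genes. The letters GGTGGCAAA (PACE) were searched on both strands from 250 bases before to 50 bases after each start codon in the RefSeq sequence of the R64 genome. They were found upstream of 27 of the 33 genes (81.8%), against 72 of 6002 genes in the genome (1.20%). The 27 sites lay between 84 and 183 bases before the start codon (median 120), 19 in the direction of the gene and 8 on the opposite strand. PRE5, PUP1, RPN8, RPN10, RPN13 and RPN4 itself had no exact match in this window. A match is a description of the letters and not a measured binding site. The 5 examples are printed 5′ to 3′ on the strand of the gene with 20 bases on either side and the element in capitals. They belong to PUP3 on chrV:349501-349549 (minus strand), which had the largest decrease in caffeine, and to PRE8 on chrXIII:86831-86879 (minus strand), the subunit that rose in YPS. The others belong to RPT3 on chrIV:1261485-1261533 (plus strand), to RPN2 on chrIX:220791-220839 (minus strand) and to RPN3 on chrV:196833-196881 (plus strand), where the element lies on the opposite strand. In S288C, the caffeine libraries lay on both sides of the others for RPN2.
PUP3: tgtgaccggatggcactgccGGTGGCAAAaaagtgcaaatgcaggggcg
PRE8: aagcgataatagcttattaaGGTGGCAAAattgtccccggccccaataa
RPT3: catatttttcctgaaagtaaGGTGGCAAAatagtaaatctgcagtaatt
RPN2: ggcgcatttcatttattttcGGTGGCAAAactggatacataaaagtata
RPN3: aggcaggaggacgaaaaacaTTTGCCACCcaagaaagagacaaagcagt

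The region upstream of RPN4 is shown because RPN4 was the member that changed most. In the 600 bases before its start codon, the Pdr1/Pdr3 element TCCGNGGA had 2 matches, starting 442 and 399 bases before the start codon. The Yap1 element TTACTAA had a match starting 374 bases before it, and the heat shock element (TTC, GAA and TTC, each 2 bases apart) had matches 348 and 21 bases before it. On both strands of the same window, 3.53% of the 6002 genes had the first element, 13.7% the second and 1.70% the third. The stretch of 137 bases that holds 4 of these matches lies on chrIV:417029-417165 (minus strand, R64), with the matches in capitals. In this order they are the Pdr1/Pdr3 element, the same element on the opposite strand, the Yap1 element and the heat shock element.
RPN4: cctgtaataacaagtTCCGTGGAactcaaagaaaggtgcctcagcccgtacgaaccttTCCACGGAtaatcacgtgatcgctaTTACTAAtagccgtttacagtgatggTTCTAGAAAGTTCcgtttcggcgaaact

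The libraries held between 8714050 and 29525000 estimated counts (median 21107250). All 33 genes had whole counts in every library, none was under 663, and all passed the filter on low counts, which kept 6400 transcripts, called genes from here on. Levels are given as TMM-scaled CPM, counts scaled by edgeR to a common library size, and comparisons as log2 fold changes with a standard error (SE) and an adjusted p-value from edgeR's quasi-likelihood test, called at 0.05. A gene is said to have risen or fallen only where it passed this threshold. The auxotrophic markers LEU2, URA3 and LYS2, deleted in BY4742, had at most 5 counts in any S288C library, and LEU2 and LYS2 had at least 542 in every other library. URA3 split the libraries within Y55 and within UWOP. It had 41 counts in Y55 27, 10 in Y55 31 and 1 each in UWOP 28 and UWOP 32, but between 270 and 2341 in the other 8 libraries of these strains. Libraries under one strain label therefore did not share 1 URA3 state, and results of Y55 and UWOP that change without these 4 libraries, an alternative chosen after seeing the data, are given both ways. Within groups, the chi-square of a pair of libraries, divided by its degrees of freedom, was between 8.73 and 309. S288C 37 (in caffeine), YPS 42 and Y55 35 (both without) stood apart, at over 100 against both other libraries of their group. Results of the 33 genes that rest on them are therefore given with and without them. The genes of other lists are given only with these libraries included, so how far their values rest on S288C 37 is not shown here. Y55 and UWOP differed from each other in only 4 genes without caffeine and the same 4 in caffeine, R0010W, R0020C, R0030W and R0040C, the genes of the 2-micron plasmid, and in no proteasome gene (0 of the 33 at an unadjusted p under 0.05 in either condition, and 0 by DESeq2). Values of Y55 and UWOP are therefore not evidence from 2 separate expression profiles. All comparisons of strains share the S288C libraries.

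RPN4 (YDL020C, chrIV:415113-416708, minus strand, R64) rose in S288C and YPS. In bulk RNA, a change in every cell and a change in some of the cells cannot be told apart. Without caffeine, its level in the S288C libraries 25, 33 and 41 was 92.6, 85.6 and 75.8 CPM. In caffeine, it was 501 CPM in library 29 and 565 CPM in library 45, but only 128 CPM in library 37. All 3 caffeine libraries were above all 3 libraries without caffeine, and library 37 was far below the other 2. The log2 fold change was 2.23 (SE 0.34, adjusted p = 1.84e-05 from edgeR), a 4.70-fold increase, and it was 2.65 without library 37 (adjusted p = 3.17e-09 from edgeR).

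In YPS, RPN4 had 97.4, 97.7 and 135 CPM without caffeine and 265, 305 and 253 CPM in caffeine. The groups did not overlap, and the highest value without caffeine was that of library 42, one of the 3 libraries that stood apart. RPN4 rose by 1.32 on the log2 scale (SE 0.33, adjusted p = 0.00357 from edgeR), or 2.49-fold.

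In Y55, the levels of RPN4 were 73.4, 116 and 80.0 CPM without caffeine and 99.1, 78.5 and 127 CPM in caffeine, so the groups overlapped. The log2 fold change was 0.18 (SE 0.33, adjusted p = 0.763 from edgeR), with a 95% interval from -0.51 to 0.87. It was 0.41 (adjusted p = 0.0408) without the 3 libraries that stood apart, of which Y55 35 was the one with 116 CPM. In UWOP, the levels were 85.8, 79.4 and 84.4 CPM without caffeine and 113, 122 and 113 CPM in caffeine. These groups did not overlap, but the log2 fold change of 0.48 (SE 0.33) did not pass the test (adjusted p = 0.298 from edgeR, 95% interval -0.22 to 1.17). The call depended on the spread that the fit shares over groups: with only the 6 UWOP libraries fitted, the log2 fold change was 0.48 with an adjusted p of 0.000518, and without the 3 libraries that stood apart it was 0.48 with an adjusted p of 0.00556.

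**Figure D1:**
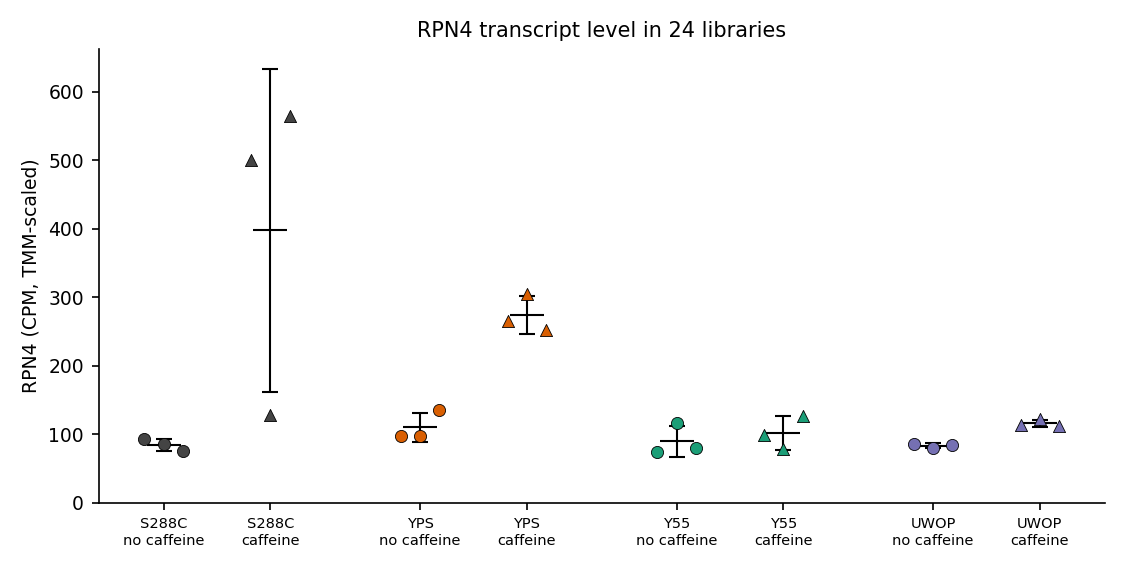
RPN4 level in TMM-scaled CPM (vertical axis) in each of the 24 libraries, by strain and caffeine. Circles are libraries without caffeine, triangles libraries in caffeine, and the bars give the mean and SD of 3 libraries. The 2 high S288C libraries in caffeine, at 501 and 565 CPM, sit far above the third at 128 CPM, and the YPS libraries in caffeine lie between 253 and 305 CPM.

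RPN4 passed no test between strains without caffeine, although the 3 YPS libraries all lay above those of S288C. Against S288C, the log2 fold change was 0.38 in YPS (adjusted p = 0.391), 0.08 in Y55 (adjusted p = 0.877) and -0.03 in UWOP (adjusted p = 0.962), each with an SE of 0.33 from edgeR. In caffeine, RPN4 was lower than in S288C by a log2 fold change of -1.97 in Y55 (SE 0.34, adjusted p = 5.19e-05 from edgeR) and of -1.78 in UWOP (SE 0.33, adjusted p = 0.00016). The YPS libraries overlapped those of S288C, with a log2 fold change of -0.54 (SE 0.32, adjusted p = 0.185 from edgeR). Without library S288C 37, this became -0.96 and passed the test (adjusted p = 0.000351).

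The difference in the caffeine response of RPN4 was tested directly with an interaction term. The response of Y55 was smaller than that of S288C by a log2 value of -2.05 (SE 0.47, adjusted p = 0.0031 from edgeR), and that of UWOP by -1.75 (SE 0.46, adjusted p = 0.0114). Without the 4 libraries with few URA3 counts, the term of Y55 was -2.20 (adjusted p = 0.0178) and that of UWOP did not pass (-1.75, adjusted p = 0.0582). For YPS, the term was -0.92 (SE 0.46, adjusted p = 0.2 from edgeR), and it passed the test only when library S288C 37 was left out, alone (-1.33, adjusted p = 0.00116) or with YPS 42 and Y55 35 (-1.16, adjusted p = 0.000265).

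The 4 known regulators of RPN4 were measured in the same libraries. In S288C, all 4 rose in caffeine: HSF1, the heat shock factor, by 0.93 on the log2 scale (SE 0.07), PDR1 by 0.77 (SE 0.12) and PDR3 by 0.67 (SE 0.11), both factors of multidrug resistance, and YAP1, the factor of the oxidative stress response, by 0.33 (SE 0.11, adjusted p = 0.0223 from edgeR). In YPS, PDR1 rose by 0.79, YAP1 by 0.54 and HSF1 by 0.46, and PDR3 did not pass the test. In UWOP, PDR1 was the one of the 4 that passed, with 0.41. In Y55, the 4 had log2 fold changes between -0.03 and 0.30 and did not pass the test. DESeq2 called all 4 in YPS, 1 in UWOP and 0 in Y55. Under library totals, all 4 rose in S288C and in YPS, 3 in UWOP and PDR1 in Y55. With TMM, 27.5% of all genes were called higher in S288C, 20.5% in YPS, 14.7% in UWOP and 8.64% in Y55. Library totals called 3928 of the 6400 genes in S288C, 2757 in YPS, 2197 in UWOP and 1118 in Y55 in either direction. Without caffeine, PDR3 was higher than in S288C in all 3 other strains, with log2 fold changes of 1.07 (YPS), 0.99 (Y55) and 0.91 (UWOP), each at an adjusted p of at most 6.77e-07. Its level was 63.6 ± 3.14 CPM in S288C and 134 ± 9.25 CPM in YPS (SD, n = 3 each), while RPN4 itself did not pass the test. Of the other 3 regulators, HSF1 was lower in YPS (-0.41) and higher in UWOP (0.23), and PDR1 was higher in Y55 (0.33) and UWOP (0.31). YAP1 passed in none of the 3 strains, with log2 fold changes between 0.12 and 0.26. Of all genes, 21%, 20% and 20.8% were called higher than in S288C in YPS, Y55 and UWOP, and 17.1%, 13.9% and 15.8% lower. Under library totals, PDR3 was higher in the 3 strains and HSF1 lower in YPS (-0.44), and the calls of HSF1 in UWOP and of PDR1 in Y55 and UWOP were lost.

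In S288C, subunits of the proteasome fell relative to other genes while RPN4 rose. With TMM scaling, 20 of the 32 subunits were lower in caffeine and 0 were higher, against 25% of all 6400 genes called lower and 27.5% called higher. Of the 33 genes, 23 had an unadjusted p under 0.05, beside 3714 of the 6400, and DESeq2 called 22 lower and RPN4 alone higher. The median log2 fold change of the subunits was -0.38, beside 0.03 over all genes, and 23 of the 32 had all caffeine libraries below the others, against 30.7% of all genes. Leaving out library S288C 37 left 14 of the 20 called and moved the median to -0.24. The shares of all genes above are with that library. Leaving out any 1 library left between 2920 and 3403 genes called in either direction. The direction depends on how libraries are scaled. With scaling to library totals alone, chosen after seeing the data, the median of all genes moved to 0.42 and that of the subunits to 0.03, and 1 subunit was lower and 2 were higher. Under that scaling, 84.4% of all genes called in S288C were higher, against 52.4% with TMM. Relative to the median of all genes, the subunits stood at -0.40 under TMM and at -0.40 under library totals. A change of scaling moves all genes of a comparison by nearly the same amount, so this distance had to stay the same, and a decrease of the subunits as a share of all counts was not shown.

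The summed level makes the same point. In the S288C libraries 25, 33 and 41, the 32 subunits together had 8084, 8124 and 7843 CPM. In caffeine, they had 6801 CPM in library 29, 6842 CPM in library 45 and 4826 CPM in library 37. All 3 were below the libraries without caffeine, and 31 of the 32 subunits were lowest in library 37, which was also the caffeine library of S288C with the least RPN4. In the deposited TPM, which sum to the same total in each library, the subunits had between 6641 and 7048 TPM without caffeine. They had 8193 and 8409 TPM in libraries 29 and 45 and 5299 TPM in library 37, so the first 2 were above the range without caffeine and the third was below it.

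**Figure D2:**
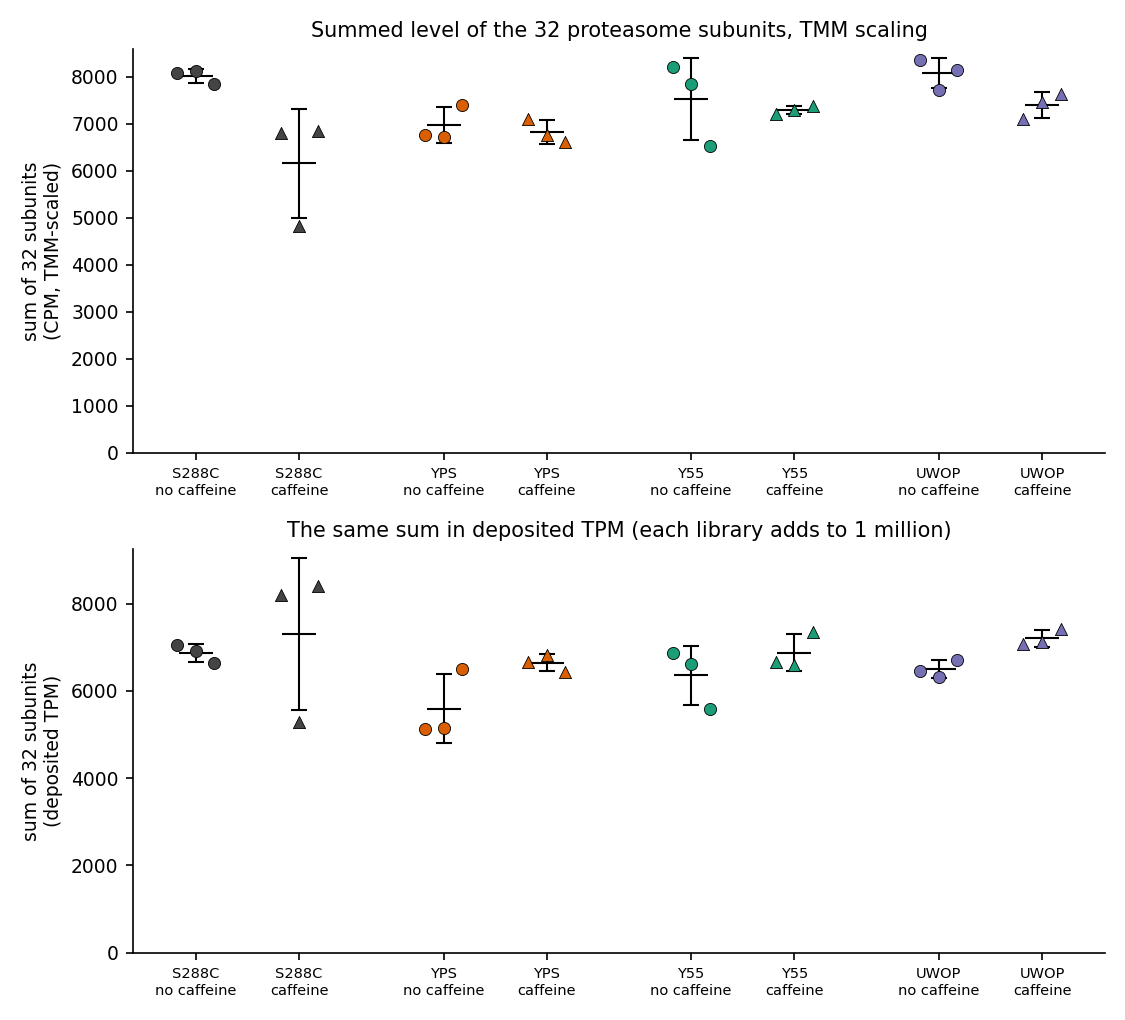
Sum of the 32 subunits in each of the 24 libraries, in TMM-scaled CPM (upper panel) and in the deposited TPM (lower panel), by strain and caffeine. Points are libraries, and bars give the mean and SD of 3 libraries. In caffeine, the S288C libraries lie below those without it in the upper panel, at 4826 to 6842 CPM, whereas 2 of them lie above in the lower panel, at 8193 and 8409 TPM.

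**Figure D3:**
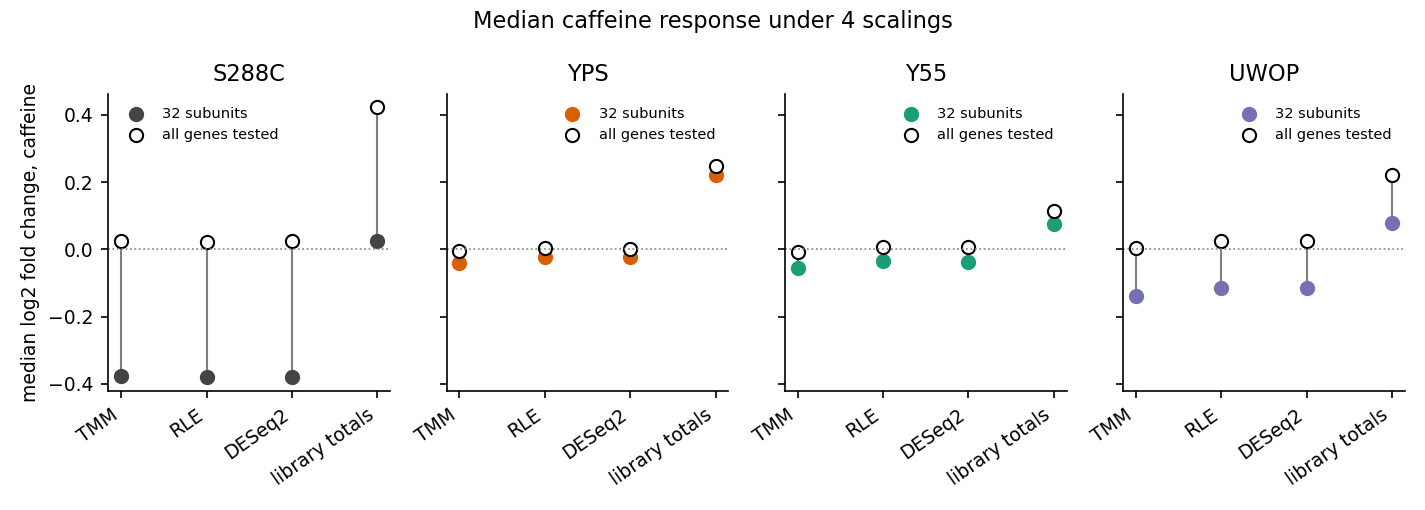
Median log2 fold change in caffeine (vertical axis) of the 32 subunits (filled) and of all genes tested (open) for each strain under TMM, RLE, DESeq2 and library-total scaling. A scaling moves both medians of a strain by nearly the same amount, and in S288C that of the subunits goes from -0.38 under TMM to 0.03 under library totals.

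Within the S288C response, the beta rings had the most calls. All 7 beta subunits fell, with a median log2 fold change of -0.62, and 5 of them stayed lower without library 37. PUP3 (YER094C), a structural beta subunit with no catalytic site, had 221, 203 and 216 CPM without caffeine and 114, 105 and 97.6 CPM in caffeine. It was the one subunit that was not lowest in library 37. It fell by 1.01 on the log2 scale (SE 0.15, adjusted p = 9.62e-06 from edgeR), and it was the one subunit that also fell under library totals, by 0.62 (adjusted p = 0.00062). PRE3, which carries the caspase-like site, had 183, 172 and 165 CPM without and 122, 93.5 and 118 CPM in caffeine, a decrease by 0.64 (SE 0.12, adjusted p = 0.000174 from edgeR). PRE7, a structural beta subunit, fell by 0.64 as well, PRE2 (chymotrypsin-like site) by 0.62 and PUP1 (trypsin-like site) by 0.50. PRE1 and PRE4 fell by 0.45 and 0.36.

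The alpha ring, which gates the entry to the core, had 4 of 7 subunits lower, with a median log2 fold change of -0.32. PRE10 fell by 0.54, PRE9 by 0.49, PRE6 by 0.45 and SCL1 by 0.30, and 2 of the 4 kept their call without library 37. PRE5 (-0.32, adjusted p = 0.0616), PRE8 (-0.24, adjusted p = 0.114) and PUP2 (-0.09, adjusted p = 0.624) did not pass edgeR's test. PUP2 had 226, 216 and 214 CPM without caffeine and 236, 144 and 236 CPM in caffeine, so that only library 37 lay below the others.

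Of the 6 ATPases of the 19S base, 5 were lower (median log2 fold change -0.46), and 4 of these kept their call without library 37. RPT6 fell by 0.63 (SE 0.14), from 323, 365 and 334 CPM to 244, 155 and 260 CPM, RPT3 by 0.60 and RPT2 by 0.50. RPT4 and RPT5 fell by 0.42 and 0.39, and RPT1 did not pass (-0.31, adjusted p = 0.0555 from edgeR).

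Among the scaffold proteins and ubiquitin receptors of the base, RPN10 was the one that fell. RPN10, a receptor of ubiquitin chains, had 228, 227 and 215 CPM without caffeine and 150, 105 and 131 CPM in caffeine, a decrease by 0.80 on the log2 scale (SE 0.17, adjusted p = 0.000585 from edgeR). RPN13, also a receptor, had a log2 fold change of -0.13 (adjusted p = 0.441), and the scaffold proteins RPN1 and RPN2 had -0.20 (adjusted p = 0.299) and 0.00 (adjusted p = 0.98). RPN2 had 486, 498 and 476 CPM without caffeine and 545, 365 and 545 CPM in caffeine, so its libraries of the caffeine group lay on both sides of the others.

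The lid, which holds the deubiquitinase Rpn11, had 3 of its 8 listed subunits lower, against 25% of all genes, with a median log2 fold change of -0.28. RPN3 fell by 0.57 (SE 0.14), RPN6 by 0.36 and RPN8 by 0.36. RPN11 itself had -0.26 (adjusted p = 0.108 from edgeR). RPN5 had overlapping levels, with 241, 234 and 237 CPM without caffeine and 242, 218 and 258 CPM in caffeine (log2 fold change 0.01, SE 0.07, adjusted p = 0.897). Without library 37, 2 of the 3 lower lid subunits kept their call, and the median of the lid was -0.17. RPN6 did not pass then (-0.24, adjusted p = 0.0825 from edgeR).

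The letters of the PACE element did not separate the subunits that fell from those that did not. Of the 27 subunits with the element, 17 were lower in S288C in caffeine, with a median log2 fold change of -0.39. Of the 5 subunits without it, 3 were lower, with a median of -0.36. RPN10, one of the largest decreases, has no exact match, whereas RPN2 and RPN5, with the log2 fold changes nearest 0 over all libraries, have one each. For RPN2 this rests on library S288C 37, without which it had 0.16 (adjusted p = 0.0994 from edgeR). No test was run on this split.

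The other 3 strains showed few changes of subunits in caffeine. In YPS, 2 of the 33 genes were higher, against 20.5% of all genes, and 1 was lower, against 20%. Besides RPN4, these were PRE8, an alpha subunit that rose by 0.36 (SE 0.13, adjusted p = 0.0305 from edgeR) from 167, 187 and 192 CPM to 261, 223 and 214 CPM, and RPN8, a lid subunit that fell by 0.24 (SE 0.08, adjusted p = 0.023). The median of the 32 subunits in YPS was -0.04, beside 0.00 over all genes. Leaving out YPS 26, YPS 30 or YPS 34 left 1 of the 33 higher, and leaving out YPS 26, YPS 34 or YPS 38 left 0 lower. In Y55, 0 of the 33 were called in either direction by edgeR, against 8.64% of all genes called higher and 5.77% called lower. There, 0 of the 33 had an unadjusted p under 0.05, DESeq2 also called 0, and all 32 subunits overlapped between the groups, whereas 22.7% of all genes did not. In UWOP, 0 were higher (14.7% of all genes) and 1 was lower (13%), with 5 of the 33 at an unadjusted p under 0.05 and 0 higher by DESeq2. The one gene was PUP3, which fell by 0.41 (SE 0.14, adjusted p = 0.0392 from edgeR), from 257, 226 and 220 CPM to 150, 198 and 182 CPM. Its call was lost without UWOP 28, 32, 36, 44 or 48, and without the 4 libraries with few URA3 counts. The UWOP median was -0.14, 15 of the 32 subunits had all caffeine libraries below the others, against 26.8% of all genes, and the fit of only the UWOP libraries called 10 of the 33 lower. Under library totals, the all-gene medians of YPS, Y55 and UWOP moved to 0.25, 0.12 and 0.22, and the subunit medians to 0.22, 0.08 and 0.08. Among all called genes, the higher ones then made up 84.4%, 85.0% and 86.0%, against 50.5%, 60.0% and 53.0% with TMM, and 6 of the 33 were higher and 0 lower in YPS.

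**Figure D4:**
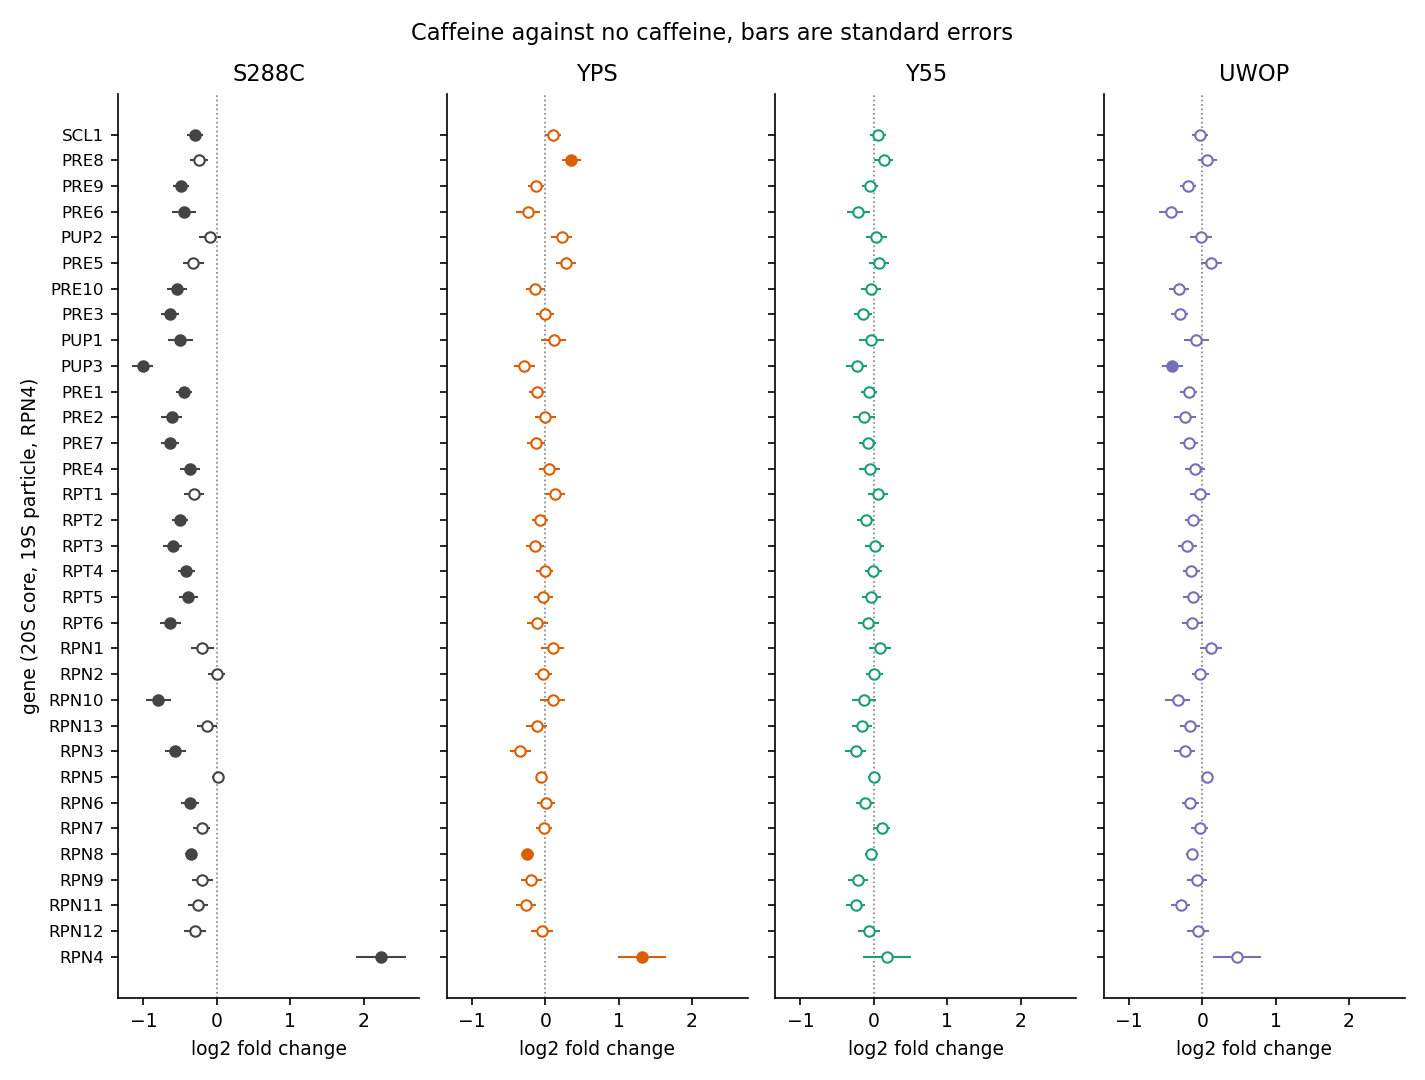
Log2 fold change in caffeine with its standard error (horizontal axis) of each of the 33 genes in the 4 strains, with TMM scaling. Filled points passed an adjusted p under 0.05 in edgeR and open points did not. In S288C, 20 subunits lie to the left of 0 as filled points and RPN4 lies at 2.23, whereas in Y55 all 33 points are open.

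Without caffeine, the summed level of the subunits was lower in YPS than in S288C, and edgeR called 1 of the 33 genes in Y55 and 0 in UWOP. The 32 subunits together had 6766, 6722 and 7401 CPM in the YPS libraries 26, 34 and 42. All 3 were below the S288C libraries, at 7843 to 8124 CPM. In YPS, 7 subunits were lower than in S288C and 0 higher, against 17.1% and 21% of all genes, with a median log2 fold change of -0.18 (9 of the 33 at an unadjusted p under 0.05 in either direction, and 0 higher by DESeq2). RPN10 was lowest, at 129, 131 and 178 CPM in YPS (log2 fold change -0.61, SE 0.17, adjusted p = 0.00695 from edgeR), followed by PUP1 (-0.58, SE 0.17) and PUP2 (-0.50, SE 0.15). In all 3 of these genes, the YPS library with the highest value was library 42, which stood apart, and without the 3 such libraries 12 of the 33 genes were lower. The count of 7 fell to 2 without YPS 26 and to 4 without YPS 34, S288C 25 or S288C 41. In Y55, 1 gene was higher and 0 were lower, against 20% and 13.9% of all genes. This was RPN9, a lid subunit, at 148, 131 and 172 CPM against 125, 100 and 119 CPM in S288C (log2 fold change 0.38, SE 0.14, adjusted p = 0.0393 from edgeR). The call was lost without S288C 25, 33 or 41 or Y55 27 or 43 and without the 4 libraries with few URA3 counts, and leaving out Y55 27 or Y55 35 gave 1 gene lower. In UWOP, 0 of the 33 were higher and 0 lower by edgeR, against 20.8% and 15.8% of all genes, with 1 at an unadjusted p under 0.05 and 0 by DESeq2.

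In caffeine, called subunits were higher in the other strains than in S288C. Their share of the 33 genes was below that of all genes in YPS, and fewer were called in all 3 strains without library S288C 37. In YPS, 4 of the 33 were higher and 0 lower (the same by DESeq2), against 24.5% and 22% of all genes, and the subunit median was 0.15. In Y55, 13 were higher and RPN4 was lower, against 30.4% and 28.7%, with a subunit median of 0.26. In UWOP, 15 were higher and RPN4 was lower, against 28.1% and 26.4%, with a subunit median of 0.29. The medians of all genes were -0.01, 0.00 and -0.01, and 8, 18 and 18 of the 33 had an unadjusted p under 0.05, beside 3384, 4052 and 3824 of the 6400 genes. All these comparisons use the same 3 S288C libraries in caffeine. Without library S288C 37, the counts of higher genes were 2, 5 and 6, and 3 genes were lower in YPS. The count was also 2 in YPS without YPS 30 and 7 in UWOP without UWOP 48, and it was 8 in Y55 and 8 in UWOP without the 4 libraries with few URA3 counts. Under library totals, which moved the medians of all genes to -0.18, -0.27 and -0.25, the counts were 2, 2 and 3, and in Y55 RPN5 was then lower beside RPN4. The split of all calls moved as well, with 34.8%, 30.9% and 31.1% higher against 52.6%, 51.5% and 51.6% with TMM.

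PUP3, PRE3 and PRE8 had the highest fold changes of the 33 genes in this comparison in each of the 3 strains. PUP3 had 192, 149 and 148 CPM in YPS, 181, 208 and 157 CPM in Y55 and 150, 198 and 182 CPM in UWOP, all above the 3 S288C libraries in caffeine at 97.6 to 114 CPM. Its log2 fold change was 0.62 in YPS (SE 0.14, adjusted p = 0.00144 from edgeR), 0.78 in Y55 (adjusted p = 0.000127) and 0.74 in UWOP (adjusted p = 0.000244). PRE3 was higher by 0.58 in YPS, 0.63 in Y55 and 0.61 in UWOP (SE 0.12 each). PRE8 was higher by 0.36, 0.48 and 0.57 (SE 0.13 each). Without library S288C 37, PRE8 did not pass in YPS (0.27, adjusted p = 0.107 from edgeR) and kept its call in Y55 (0.39) and UWOP (0.48). PUP3 and PRE3 kept their calls in the 3 strains without that library. PUP3 and PRE3 were higher in the 3 strains under library totals too.

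The difference of the caffeine response from that of S288C was tested for each gene. In YPS, 5 of the 33 interaction terms were higher than in S288C and 0 lower (9 and 0 by DESeq2, and 18 at an unadjusted p under 0.05 beside 1784 of the 6400), against 6.86% and 5.94% of all genes. The highest were RPN10 (0.90, SE 0.24, adjusted p = 0.0178 from edgeR), PUP3 (0.72, SE 0.20) and PRE3 (0.63, SE 0.17). In Y55, 9 were higher and RPN4 was lower, against 15.2% and 13.9%, led by PUP3 (0.78, SE 0.20, adjusted p = 0.008), RPN10 (0.66, SE 0.24) and RPT3 (0.61, SE 0.18). In UWOP, 1 was higher, PUP3 (0.60, SE 0.20, adjusted p = 0.0404), and RPN4 was lower, against 11% and 11.2% of all genes. A higher term here means a smaller decrease, or an increase, compared with S288C. The subunit medians were 0.39, 0.37 and 0.27. The counts of higher terms were unstable when single libraries were left out: in YPS they were between 0 (without YPS 30) and 10 (without YPS 42), in Y55 between 1 (without Y55 43) and 11, and in UWOP between 0 and 2 (without S288C 29). Without S288C 37 they were 3, 3 and 1, and without the 4 libraries with few URA3 counts they were 4 for Y55 and 1 for UWOP. The shares of all genes above are with all libraries. Leaving out any 1 library left at least 523, 1434 and 973 terms called over all genes in either direction. Under library totals the counts of higher terms were 2, 1 and 0. The share of higher terms among all calls was then 30.9%, 20.3% and 24.6%, against 53.6%, 52.2% and 49.5% with TMM.

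Per length, the subunits were expressed within a narrow range. Between the lowest and the highest of the 32 subunits, the deposited TPM differed by 2.45 to 3.61-fold within a library. In each of the 24 libraries, the median TPM of the alpha ring was above that of the beta ring, and both were above the medians of the ATPases, of the scaffold and receptor group and of the lid. Over libraries, the alpha ring had a median of 276 TPM (range 204 to 350), the beta ring 240 (169 to 297), the ATPases 202 (142 to 251), the scaffolds and receptors 157 (106 to 216) and the lid 151 (119 to 212). SCL1 was the highest gene, with a median of 314 TPM (216 to 412), and RPN9 the lowest subunit, with 118 TPM. Most neighbours in the order could not be told apart: in the 3 S288C libraries without caffeine, 26 of 32 neighbouring pairs overlapped. RPN4 varied far more than the subunits, with a median of 62.7 TPM and a range from 39.1 to 464 TPM, and its rank among the 33 ran from 1 to 33 over the libraries.

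**Figure D5:**
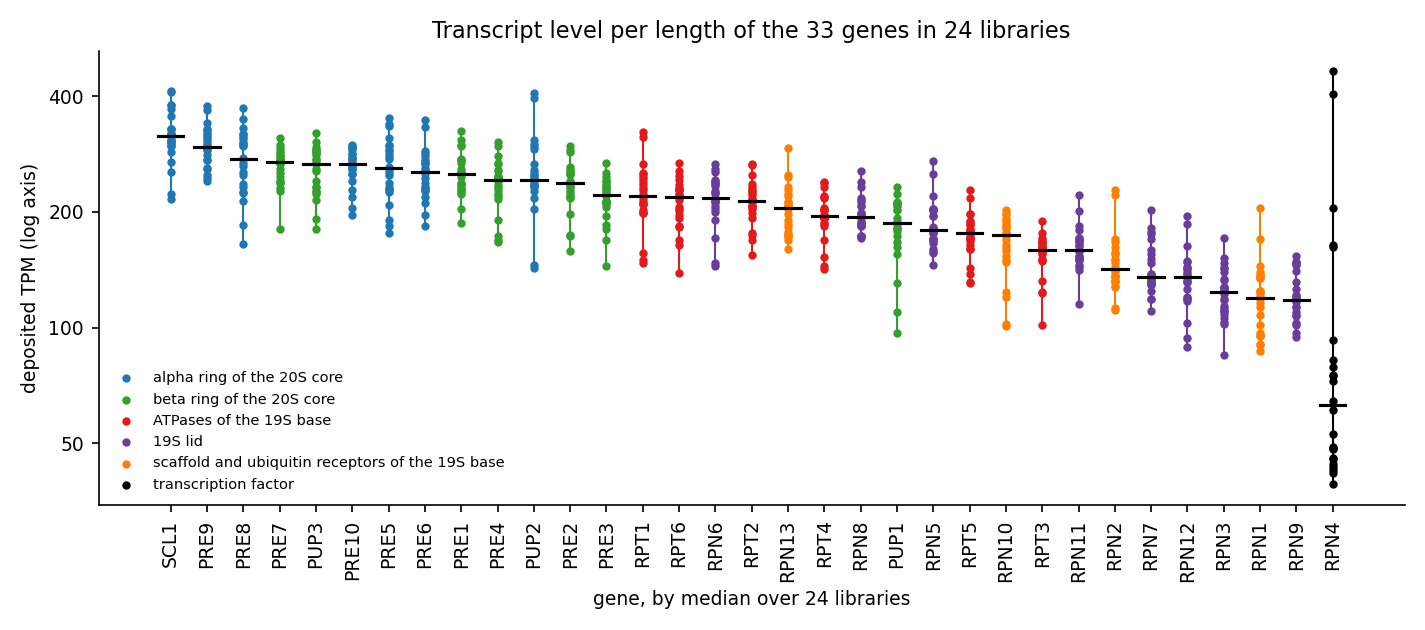
Deposited TPM (log axis) of the 33 genes in the 24 libraries, ordered by the median over libraries, with colours for the parts of the proteasome. Points are libraries and the short bar is the median. Alpha subunits stand at the left, at up to 412 TPM for SCL1, lid subunits mostly at the right, and RPN4 spans 39.1 to 464 TPM.

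Genes that work with the proteasome did not move as 1 group. Of 13 genes listed as assembly factors and activators, SEM1 among them, 2 rose and 3 fell in S288C in caffeine, against 27.5% and 25% of all genes. NAS2 and RPN14, chaperones of the base, rose by 0.58 and 0.34, while the activators and adaptors ECM29 and BLM10 fell by 0.80 and 0.53 and the core chaperone ADD66 by 0.79. ADD66 also fell in YPS, Y55 and UWOP, by 0.39, 0.33 and 0.43. Under library totals, NAS2, RPN14 and ADD66 kept their call in S288C, ECM29 (-0.39, adjusted p = 0.229) and BLM10 (-0.13, adjusted p = 0.339) did not, and ADD66 did not in the other strains. Of 21 genes of ubiquitin, its ligases and shuttle factors, 8 rose and 4 fell in S288C, against the same shares of all genes. UBI4, the polyubiquitin gene that stress induces, rose by 1.93 (SE 0.37, adjusted p = 0.000236 from edgeR), from 235 to 893 CPM (means of 3 libraries), followed by DOA1 (0.69), whose product keeps the ubiquitin pool. The largest decreases were those of CDC48 (0.63), the segregase that extracts ubiquitylated proteins, and its cofactor SHP1 (0.45). UBI4 rose by 1.93 in YPS and 1.71 in UWOP as well. In YPS, 6 of the 21 rose and 1 fell, in UWOP 2 rose, and in Y55 the ubiquitin-conjugating enzyme UBC5 was the one that rose, by 0.71. Of all genes, 20.5% were called higher and 20% lower in YPS, 14.7% higher in UWOP and 8.64% higher in Y55. Under library totals, 14 of the 21 rose and 0 fell in S288C, with CDC48 at -0.22 (adjusted p = 0.317) and SHP1 at -0.05 (adjusted p = 0.764). That scaling called 3928 of the 6400 genes in S288C in either direction.

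Further protein quality control genes are given for comparison. In caffeine, 27.5% of all genes were called higher and 25% lower in S288C, and 20% were called lower in YPS. Of 7 vacuolar protease genes, the other main route of protein breakdown, 3 rose and 1 fell in S288C in caffeine, led by PRB1 (proteinase B) with 2.34 (SE 0.49), PEP4 and APE1, whereas APE3 fell by 0.61. Of the 8 genes of the CCT chaperonin, which folds actin and tubulin, 7 fell in S288C, with a median log2 fold change of -0.63. In YPS, 4 of the 8 fell, with a median of -0.21, and in Y55 and UWOP 0 passed edgeR's test, with medians of -0.06 and -0.17 (0 and 4 at an unadjusted p under 0.05, and 0 by DESeq2). Against S288C in caffeine, 4 of the 8 were higher in YPS and all 8 in Y55 and in UWOP, against 24.5%, 30.4% and 28.1% of all genes. Under library totals, 4 of the 8 fell in S288C, with a median of -0.23, and 5 were higher in Y55 and 5 in UWOP, while in YPS 0 fell (median 0.05) and 1 was higher than in S288C in caffeine. APE3 did not pass under library totals (-0.22, adjusted p = 0.0706).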

How the data were processed

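RNA was sequenced in 24 TruSeq Stranded mRNA libraries, 8 groups of 3. Per the submitters' processing notes and the study's methods, the authors trimmed the reads with Trimmomatic 0.36, pseudo-aligned those of all strains to R64 transcripts with kallisto 0.44.0 and deposited estimated counts, effective lengths and TPM. Reads of strains that differ from the reference can therefore be lost in some genes. The deposited tables of the authors' DESeq2 comparisons (log2 fold change, standard error, p-value, adjusted p-value, mean count) were not used.

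Estimated counts were rounded and tested with edgeR 4.0.16 (limma 3.58.1, R 4.3.3): edgeR's filter over 8 groups, TMM factors, 1 model of the 24 libraries with a term for each group, the quasi-likelihood test, and Benjamini-Hochberg adjustment within each of 15 comparisons at 0.05. The standard error is the size of the log2 fold change over the square root of F, and 95% intervals use the 16 residual degrees of freedom. The smallest two-sided p that an exact permutation of 3 against 3 libraries allows is 0.1. The method was tested on simulated counts. The members and lists were chosen with earlier results of these data known. Besides RPN4, the 3 members with the highest and the 3 with the lowest called fold change were to be named in each comparison, with the 2 largest calls of each other list, and further members where a role is described. Alternatives were RLE, DESeq2 1.42.0, no filter, effective lengths as offsets, fitting the compared groups alone and leaving out each library. Scaling to library totals, leaving out 3 libraries far from their group and leaving out 4 libraries with under 100 counts of URA3 and a block for 3 sets of consecutive library numbers were chosen after seeing the data. Elements were searched in windows cut from the RefSeq R64 genome and annotation, in which all 33 genes had identical length. A vacuolar protease gene, CPS1, was not analysed here.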

Additional observations from a re-analysis of the deposited data

Results flagged for a closer look

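The results that stand out are the 17 called interaction terms, in which the caffeine response of a gene differed from that in S288C by edgeR's test. Groups of 3 libraries are too small for a test of single outlying libraries. For YPS, the terms on the log2 scale were 0.60 for PRE8, 0.60 for PRE5, 0.63 for PRE3, 0.72 for PUP3 and 0.90 for RPN10. For Y55, they were 0.44 for PRE9, 0.51 for PRE10, 0.49 for PRE3, 0.78 for PUP3, 0.55 for PRE7, 0.61 for RPT3, 0.56 for RPT6, 0.66 for RPN10, 0.33 for RPN8 and -2.05 for RPN4. For UWOP, they were 0.60 for PUP3 and -1.75 for RPN4. Of all genes, 6.86%, 15.2% and 11% had a higher term called for YPS, Y55 and UWOP, and 5.94%, 13.9% and 11.2% a lower one. All 17 use the same S288C libraries, and some of the calls rest on library S288C 37. When it was left out, the YPS terms of PRE8 (adjusted p = 0.0541 from edgeR) and PRE5 (0.0772) did not pass. Nor did the Y55 terms of PRE9 (0.0812), PRE10 (0.105), PRE3 (0.0767), RPT6 (0.0697), RPN10 (0.0929) and RPN8 (0.0808). The other terms listed kept their calls without S288C 37, but several lost them without another single library. For YPS, the highest adjusted p from edgeR was then 0.0569 for RPN10, 0.0584 for PRE3 and 0.0811 for PUP3. For Y55 it was 0.0718 for PRE7 and 0.0616 for RPT3, and for UWOP 0.12 for PUP3. PUP3 and RPN4 for Y55 and RPN4 for UWOP kept their calls without any 1 library. RPN4 for UWOP lost its call without the 4 libraries with few URA3 counts.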

How the results depend on the processing

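The library numbers run in 3 sets of 8, each with 1 library of every group, but the labels do not say that a set shares a batch or day. The 4 libraries with few URA3 counts are those of Y55 and UWOP in the first set. Leaving them out therefore leaves that set out of both strains. Correlations of the deviations of libraries of the same set were over 0.1 in all 3 sets only for Y55 against S288C without caffeine (0.12 to 0.22) and in caffeine (0.14 to 0.35). With the set as a replicate block, chosen after seeing the data, 22 genes were lower in S288C in caffeine, 6 lower in YPS without caffeine, 16 higher in UWOP in caffeine and 4 interaction terms higher for YPS, against 20, 7, 15 and 5, no other count of members changed, and of the named genes PRE5 lost its calls (adjusted p = 0.055 in YPS without caffeine and 0.0589 for the YPS interaction, by edgeR). The sets are not used as pairs. Counts below are of the 33 genes, and the cause of each shift was not tested. The 93 log2 fold changes of called genes and of RPN4 kept their direction under RLE, DESeq2, no filter, length offsets and the fit of only the groups compared. With scaling to library totals, the caffeine response gave 3 genes higher and 1 lower in S288C, 6 higher and 0 lower in YPS, and 1 higher and 0 lower in UWOP. It gave 0 higher in Y55 against S288C without caffeine, and in caffeine 2 higher in YPS, 2 higher and 2 lower in Y55 and 3 higher in UWOP, with 2, 1 and 0 higher interaction terms for YPS, Y55 and UWOP. Log2 fold changes that turned under this scaling were, in S288C, SCL1 (0.10), PRE4 (0.040), RPT5 (0.016), RPN6 (0.036) and RPN8 (0.040), in YPS RPN8 (0.019), and against S288C in caffeine SCL1 (-0.016) and RPN8 (-0.038) in Y55 and RPN8 (-0.040) in UWOP. With a fit of only the groups compared, the caffeine response gave 0 lower in YPS and 1 higher and 10 lower in UWOP, and over all genes 117 calls in Y55 against 922 and 2796 in UWOP against 1771. It gave 0 higher in Y55 and 2 higher and 3 lower in UWOP against S288C without caffeine (3628 calls over all genes against 2343), then 2, 3 and 4 higher in YPS, Y55 and UWOP in caffeine, and 3 and 1 higher interaction terms for YPS and Y55. Without the 3 libraries far from their group, the caffeine response gave 5 higher and 3 lower in YPS, 1 and 1 in Y55 and 1 and 7 in UWOP, with 1740 and 2667 calls over all genes in Y55 and UWOP. It gave 12 lower in YPS, 2 higher and 5 lower in Y55, and 1 higher and 1 lower in UWOP against S288C without caffeine, and in caffeine 2 higher and 3 lower in YPS, 6 higher and 3 lower in Y55 and 7 higher in UWOP. The interaction terms were then 10 higher and 1 lower for YPS and 4 higher for Y55, with 1853 and 2506 calls over all genes for YPS and UWOP against 819 and 1418. Without the 4 libraries of Y55 and UWOP with few URA3 counts, the caffeine response gave 0 lower in UWOP, with 315 calls over all genes in Y55 and 795 in UWOP. Against S288C, 0 were then higher in Y55 without caffeine and 8 in Y55 and 8 in UWOP in caffeine, and the interaction terms were 4 higher for Y55 (1186 calls over all genes) and 0 lower for UWOP (782 calls), where RPN4 had an adjusted p of 0.0582 by edgeR. DESeq2 gave 2 lower for the response of UWOP, 0 higher and 2 lower for Y55 against S288C without caffeine, and 9 and 3 higher interaction terms for YPS and UWOP. RLE gave 0 lower for the response of UWOP, 0 higher and 1 lower for Y55 against S288C without caffeine, and 2 higher interaction terms for UWOP.

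Leaving out each library in turn, the caffeine response ranged from 1 to 2 higher and 0 to 1 lower in YPS and from 0 to 1 lower in UWOP, and all calls in Y55 from 483 to 1118. Against S288C without caffeine, the counts were 2 to 8 lower in YPS and 0 to 1 higher and 0 to 1 lower in Y55. In caffeine, they were 2 to 6 higher and 0 to 3 lower in YPS, 5 to 18 higher in Y55 and 6 to 18 higher in UWOP. The interaction terms ranged from 0 to 10 higher and 0 to 1 lower for YPS (523 to 1293 calls over all genes), from 1 to 11 higher for Y55 and from 0 to 2 higher for UWOP. The called log2 fold changes of RPN4 kept their direction and call when any 1 library was left out. Its uncalled values turned in the response of Y55 (-0.015 to 0.40, lowest without Y55 47), in Y55 against S288C without caffeine (-0.17 to 0.19, negative without Y55 35, with -0.01 without S288C 41, and -0.15 without the 3 libraries), in UWOP against S288C without caffeine (-0.12 to 0.017, positive without S288C 25) and in Y55 against UWOP without caffeine (-0.12 to 0.24, negative without Y55 35, and -0.12 without the 3 libraries). No member had under 663 counts in a library, in totals of 8714050 to 29525000 counts, and differences smaller than the spread between 3 libraries were not detectable.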

Other observations

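The PACE letters also stood in the same window of 45 genes outside the list, of which 43 were tested. In caffeine, 13 of these were higher and 10 lower in S288C (median log2 fold change 0.02), 15 higher and 4 lower in YPS (median 0.10), 4 higher and 2 lower in Y55 (median 0.03), and 7 higher and 5 lower in UWOP (median 0.01). Of all genes, 27.5% were called higher and 25% lower in S288C, and 20.5% and 20% in YPS. The shares were 8.64% and 5.77% in Y55 and 14.7% and 13% in UWOP.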
